A study of Mus musculus with 12 samples.

Results

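Acly, Fasn, Scd1, Scd2, Srebf1, Hmgcs1, Sqle and Idi1 are 8 genes of the making of fatty acids and sterols, taken as every probe set whose annotated gene symbol is exactly one of these names. They hold 21 of the 45037 probe sets that measure mouse transcripts on the array and 8 of the 18193 genes with a probe set of their own, and no probe set is shared with another gene. Acly has 6 probe sets, Hmgcs1 has 5, Scd2 has 3, Scd1 and Idi1 have 2 each, and Fasn, Srebf1 and Sqle have 1 each. Acly was selected on its differences among the groups below, since it is one of the genes that the study displayed as differing, so its 6 probe sets are described with no test and are in no count of calls. The other 7 genes, with 15 probe sets, were chosen by their place in the same pathways, with earlier results of these data known.

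RNA came from pieces of spleen of female mice of BALB/cByJ and BALB/cJ, separately kept inbred colonies of the BALB/c strain, which is prone to arthritis after injection of cartilage proteoglycan (PG) aggrecan. Immunized mice had 1 intraperitoneal injection of PG (100 µg of protein) in 2 mg of the adjuvant dimethyldioctadecyl-ammonium bromide (DDA), and spleens were taken on day 12. Naïve mice were left untreated, so PG and adjuvant cannot be told apart, and no mouse carried a transgene or an engineered deletion. There were 3 immunized BALB/cByJ, 3 immunized BALB/cJ, 3 naïve BALB/cByJ and 3 naïve BALB/cJ arrays, each labelled as a separate biological replicate, and no source used here gives the age of these mice. A whole spleen piece holds many cell types, so fewer cells of a type and less RNA per cell cannot be told apart.

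Cells make fatty acids and sterols from cytosolic acetyl-CoA. Acly (ATP citrate lyase) splits citrate to supply it, Fasn (fatty acid synthase) builds it into saturated chains, and the stearoyl-CoA desaturases Scd1 and Scd2 add a double bond to those chains. Hmgcs1 (HMG-CoA synthase) starts the mevalonate pathway, Idi1 (isopentenyl diphosphate isomerase) makes one of its isoprenoid units, and Sqle (squalene epoxidase) carries out an oxygenation step on the way to cholesterol. Srebf1 encodes the transcription factor SREBP-1, which is held in membranes by SCAP and INSIG proteins and acts on many genes of lipid synthesis after it is cut free, while its relative SREBP-2, from Srebf2, acts mainly on the sterol branch. Dividing lymphocytes need membrane lipid, and both branches are known to be turned up when these cells are activated.

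The bases before the start of Hmgcs1, Idi1 and Acly are shown because Hmgcs1 and Idi1 are sterol genes that varied with other members across the arrays and Acly is the member chosen by the study. Of the 8 genes, 5 had an entry in the RefSeq promoter table of the mouse assembly GRCm38.p6 (the C57BL/6J reference, not a BALB/c sequence), and Scd1, Scd2 and Sqle had none. Each line gives the 250 bases before the annotated start, 5′ to 3′ on the gene's strand, and capitals mark matches on either strand to a sterol regulatory element (TCACNCCAC), a CCAAT box (CCAAT) or a GC box (GGGCGG).
Hmgcs1, chr13:119690101-119690350, plus strand: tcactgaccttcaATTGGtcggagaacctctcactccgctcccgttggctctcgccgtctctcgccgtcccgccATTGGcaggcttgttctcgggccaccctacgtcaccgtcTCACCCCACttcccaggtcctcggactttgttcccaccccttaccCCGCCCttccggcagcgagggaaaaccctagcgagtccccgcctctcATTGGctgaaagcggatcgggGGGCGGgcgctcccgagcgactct
Idi1, chr13:8885356-8885605, plus strand: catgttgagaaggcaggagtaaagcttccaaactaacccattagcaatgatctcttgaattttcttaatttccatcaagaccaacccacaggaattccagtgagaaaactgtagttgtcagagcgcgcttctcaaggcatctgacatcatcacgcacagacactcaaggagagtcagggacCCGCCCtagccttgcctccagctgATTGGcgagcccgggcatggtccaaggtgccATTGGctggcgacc
Acly, chr11:100528001-100528250, minus strand: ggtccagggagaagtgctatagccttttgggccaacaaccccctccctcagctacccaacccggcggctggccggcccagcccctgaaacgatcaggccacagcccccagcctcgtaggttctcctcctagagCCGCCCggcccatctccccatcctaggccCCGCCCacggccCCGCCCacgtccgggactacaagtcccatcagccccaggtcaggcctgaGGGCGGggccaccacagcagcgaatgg
The sterol regulatory element was found in 1.05% of all 32851 promoter windows of this length, CCAAT in 33.8% and GGGCGG in 32.7%. Hmgcs1 held 1 sterol regulatory element, at position -137 from the start, with 3 CCAAT boxes and 2 GC boxes. Idi1 held 2 CCAAT boxes and 1 GC box, and Acly held 4 GC boxes. The windows of Fasn and Srebf1 are not shown. Among the 7 windows of the members, only that of Hmgcs1 held a sterol regulatory element. A match is a description of these letters and not a measured binding site.

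Expression values were log2 signals from which the authors had subtracted each probe set's median over the 12 arrays, so a value of 0 is the middle array and no value tells how strongly a gene is expressed. Over all probe sets the median standard deviation (SD) across the arrays was 0.138, and the members ranged from 0.0969 to 0.359, with 16 of the 21 above that median. Member values lay between -0.68 and 0.49. Several arrays stood apart on genes of other cells. Genes of the exocrine pancreas had a median of 2.10 in naïve BALB/cByJ replicate 1 (highest gene Cpb1, 4.25). Genes of fat had a mean of 0.69 in immunized BALB/cJ replicate 1 (Adipoq, 2.81), and pigment cell genes had medians of 1.63 in immunized BALB/cByJ replicate 2, 2.33 in immunized BALB/cJ replicate 1, and 3.31 and 2.88 in naïve BALB/cJ replicates 1 and 2 (Dct, 6.29 in the highest array). Naïve BALB/cJ replicate 3 came next in genes of fat (mean 0.43) and in pigment cell genes (mean 0.58). B cell genes (7 of 8 listed were measured) had list medians between -0.16 and 0.17 on all 12 arrays, but without a level their presence could not be checked.

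Acly, the enzyme that supplies acetyl-CoA, is given first and as a description. Probe set 1425326_at read 0.02, -0.29 and -0.02 in immunized BALB/cByJ and 0.20, 0.17 and 0.18 in immunized BALB/cJ. It read -0.54, -0.29 and -0.19 in naïve BALB/cByJ and 0.17, 0.24 and -0.02 in naïve BALB/cJ. The BALB/cByJ arrays were the lower ones in both states, without overlap, and 1451666_at, which correlated with it at r = 0.94 over the 12 arrays, had the same order. The log2 difference between the colonies (BALB/cByJ minus BALB/cJ) in naïve mice was -0.47 for 1425326_at, -0.41 for 1439459_x_at, -0.36 for 1451666_at, -0.19 for 1438389_x_at, -0.09 for 1439445_x_at and 0.00 for 1446315_at. In immunized mice these probe sets differed by -0.28, -0.33, -0.12, -0.04, -0.03 and -0.01 in the same order. The 6 probe sets of this 1 gene thus did not move as one, and their pairwise correlations ranged from -0.48 to 0.94 over 15 pairs, with 1446315_at below 0 against 3 of the other 5. No source used here says which of them the study displayed. With immunization, 1425326_at differed by 0.24 in BALB/cByJ and 0.05 in BALB/cJ, and 1451666_at by 0.18 in BALB/cByJ and -0.06 in BALB/cJ.

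Fasn, which builds the saturated chain, read 0.25, 0.15 and -0.01 in immunized BALB/cByJ, against -0.02, -0.11 and -0.06 in naïve BALB/cByJ. It read 0.21, 0.03 and 0.06 in immunized BALB/cJ, against -0.05, -0.06 and 0.01 in naïve BALB/cJ. Immunized arrays were the higher ones in each colony without overlap, though by a margin of only 0.01 at the closest in BALB/cByJ. The log2 difference with immunization was 0.19 (SE 0.0821, adjusted p = 0.58 by limma) in BALB/cByJ and 0.13 (SE 0.0821, adjusted p = 0.662) in BALB/cJ, and neither passed the test. Between the colonies Fasn differed by 0.03 in immunized mice and -0.03 in naïve mice, with 95% intervals of -0.146 to 0.21 and -0.207 to 0.15, which leave room for a difference of that size in either direction.

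Scd1, which desaturates stearoyl-CoA and is the main isoform of liver and fat, was the lower one in BALB/cByJ. Probe set 1415965_at read 0.09, -0.53 and -0.17 in immunized BALB/cByJ and 0.49, 0.32 and 0.32 in immunized BALB/cJ. In naïve mice it read -0.68, -0.07 and -0.35 in BALB/cByJ and 0.07, 0.14 and -0.25 in BALB/cJ. No immunized BALB/cByJ array reached an immunized BALB/cJ array, while 1 naïve BALB/cJ array fell among the naïve BALB/cByJ arrays. Probe set 1415964_at, with r = 0.79 against it, read -0.03, -0.35 and -0.09 in immunized BALB/cByJ and 0.16, 0.13 and 0.22 in immunized BALB/cJ. In naïve mice it read -0.05, -0.09 and -0.22 in BALB/cByJ and 0.08, 0.11 and 0.03 in BALB/cJ, so its colonies did not overlap in either state. Scd1 lies near Scd2 on chromosome 19 of GRCm38.p6 (Scd1 at 44394450-44407709 and Scd2 at 44293676-44306864), and the probe sequences of these related genes were not analysed here.

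Scd2, an isoform best known from brain, varied more with immunization. Probe set 1415823_at read 0.17, -0.04 and 0.04 in immunized BALB/cByJ, against -0.47, -0.20 and -0.29 in naïve BALB/cByJ. It read 0.08, 0.06 and 0.31 in immunized BALB/cJ, against -0.11, 0.12 and -0.48 in naïve BALB/cJ. The BALB/cByJ arrays did not overlap between the states and the BALB/cJ arrays did. The difference with immunization was 0.38 (SE 0.136, adjusted p = 0.524) in BALB/cByJ and 0.31 (SE 0.136, adjusted p = 0.532) in BALB/cJ by limma. Probe set 1415822_at differed by 0.24 in BALB/cByJ and 0.14 in BALB/cJ, and 1415824_at by 0.18 in BALB/cByJ and 0.41 in BALB/cJ, none of them past the test. The 3 probe sets correlated with one another at 0.77 to 0.90 over the 12 arrays.

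Srebf1, the regulator, read 0.14, 0.16 and -0.15 in immunized BALB/cByJ and 0.01, -0.09 and 0.01 in immunized BALB/cJ. Its naïve values were -0.01, -0.12 and -0.08 in BALB/cByJ and 0.14, 0.06 and -0.01 in BALB/cJ. The groups overlapped in every comparison, and its log2 differences between the colonies were 0.08 in immunized mice and -0.13 in naïve mice. Its transcript level says nothing of how much SREBP-1 protein was cut free, which was not measured.

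Hmgcs1, the first enzyme of the sterol branch among the members, differed more between arrays of 1 group than between groups. The mean of its 5 probe sets was 0.25, 0.23 and -0.14 in immunized BALB/cByJ and 0.00, -0.16 and 0.01 in immunized BALB/cJ. It was 0.07, -0.06 and -0.26 in naïve BALB/cByJ and 0.23, 0.09 and -0.15 in naïve BALB/cJ. Replicate 3 was the lowest array in immunized BALB/cByJ, naïve BALB/cByJ and naïve BALB/cJ. Probe set 1433446_at was the exception in pattern, with 0.16, 0.30 and -0.01 in immunized BALB/cByJ against -0.33, -0.15 and -0.25 in naïve BALB/cByJ. That difference was 0.39 (SE 0.110, adjusted p = 0.386 by limma), without overlap, while the 4 other probe sets differed there by 0.03 to 0.21 with overlap.

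Sqle, a flavoprotein that oxidizes squalene, was the higher one in BALB/cByJ. It read 0.43, 0.44 and 0.21 in immunized BALB/cByJ and -0.12, 0.03 and -0.03 in immunized BALB/cJ. In naïve mice it read -0.02, 0.00 and 0.12 in BALB/cByJ and 0.00, -0.27 and -0.41 in BALB/cJ. The 3 immunized BALB/cByJ arrays were the highest of all 12, and the naïve groups overlapped.

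Idi1, the isomerase of the isoprenoid units, had the same order. Probe set 1451122_at read 0.39, 0.48 and 0.11 in immunized BALB/cByJ and -0.02, -0.07 and 0.02 in immunized BALB/cJ. In naïve mice it read -0.02, -0.02 and 0.14 in BALB/cByJ and 0.12, -0.29 and -0.35 in BALB/cJ. The immunized colonies did not overlap and the naïve colonies did. Its other probe set, 1423804_a_at, read 0.13, 0.46 and 0.01 in immunized BALB/cByJ and 0.01, -0.38 and -0.01 in immunized BALB/cJ, where the groups met within rounding and were called overlapping.

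**Figure D1:**
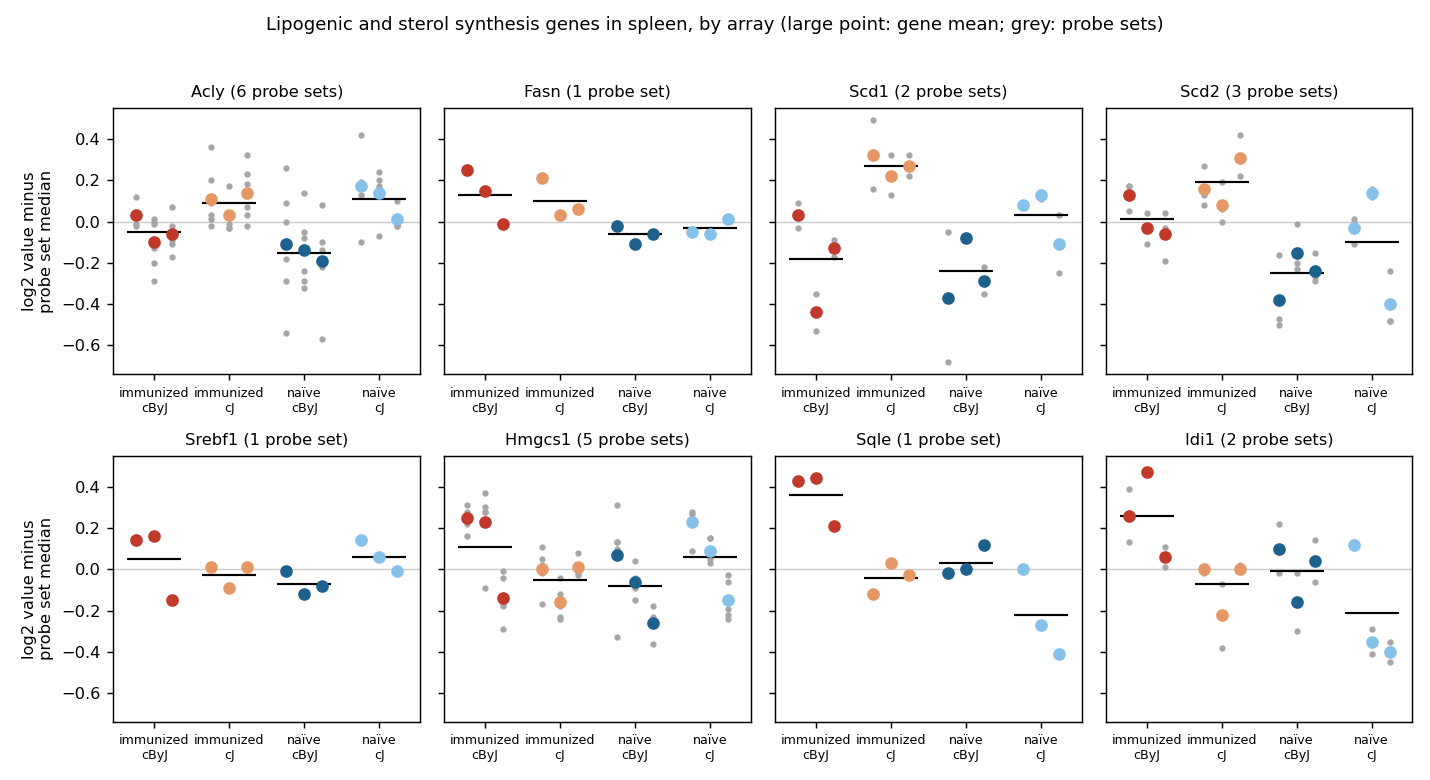
Each panel plots 1 gene, with the groups on the x axis and the log2 value minus the probe set's median over the arrays on the y axis. Large points are the mean of the gene's probe sets on 1 array, small grey points are the probe sets and lines are group means (n = 3). Sqle was highest in immunized BALB/cByJ, with a mean of 0.36 against -0.04 in immunized BALB/cJ, and Scd1 was highest in immunized BALB/cJ, with a mean of -0.18 in immunized BALB/cByJ against 0.27 there.

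The first comparison asks how the colonies differ after immunization. Sqle was 1.32-fold higher in immunized BALB/cByJ than in immunized BALB/cJ (log2 difference 0.40, SE 0.107), and Scd1 was 1.25-fold and 1.49-fold lower by its probe sets 1415964_at (log2 difference -0.32, SE 0.0882) and 1415965_at (-0.58, SE 0.173). Idi1 was 0.35 higher on the log2 scale by 1451122_at (SE 0.125) and 0.33 by 1423804_a_at (SE 0.181). None of these passed the test, with limma adjusted p-values of 0.391 for Sqle, 0.412 and 0.454 for Scd1, and 0.549 and 0.687 for Idi1. Of the 15 tested probe sets 0 were called at an adjusted p under 0.05, where 0.12% of all probe sets were called. At an unadjusted p under 0.05 there were 4 of the 15, beside 7.92% of all probe sets, and the one-way analysis of variance named in the study's methods called 0 of the 15. Over the groups together, that analysis passed only 74 of all 45037 probe sets, so a count of 0 among 15 tells little here and below. In 5 of the 15, and in 6763 of all 45037 probe sets, the colonies did not overlap, with Sqle and Idi1 1451122_at higher in BALB/cByJ and Scd1 (both probe sets) and Scd2 1415824_at lower. The immunized arrays fall into 2 runs of sample numbers, 29 to 33 and 48 to 50, which no label calls a batch. Sqle differed by 0.56 in the first run and 0.21 in the second, and Scd1 1415965_at by -0.71 and -0.49, with only 1 or 2 arrays a colony in a run. The probe sets of Idi1, Scd2 and Fasn also kept their sign, with 0.45 and 0.14 for Idi1 1451122_at and -0.24 and -0.49 for Scd2 1415824_at. Fasn was near 0 in both runs (-0.01 and -0.05). Srebf1 and several Hmgcs1 probe sets did not keep their sign. The Hmgcs1 probe sets differed by 0.12 to 0.30 in the first run and by -0.18 to 0.03 in the second, and Srebf1 by 0.14 and -0.11.

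In naïve mice the median difference of the 15 probe sets was -0.127, with 12 of them lower in BALB/cByJ, where 52.1% of all probe sets were lower. The 12 include all 5 probe sets of Hmgcs1, and the 15 belong to only 7 genes, so they are not independent. Sqle differed by 0.26 (SE 0.107, adjusted p = 0.209 by limma) and the probe sets of Idi1 by 0.20 and 0.21, and these were the 3 that were higher. Scd1 differed by -0.20 (1415964_at, SE 0.0882, adjusted p = 0.252) and -0.36 (1415965_at, SE 0.173, adjusted p = 0.292), and Hmgcs1 1433446_at by -0.25 (SE 0.110, adjusted p = 0.242). Of the 15 probe sets 0 were called, where 4.39% of all probe sets were called, and 3 had an unadjusted p under 0.05, beside 18.7% of all. The analysis of variance, which passed 74 of all probe sets, again called 0. The groups did not overlap for 1 of the 15, Scd1 1415964_at, and for 21.7% of all probe sets.

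**Figure D2:**
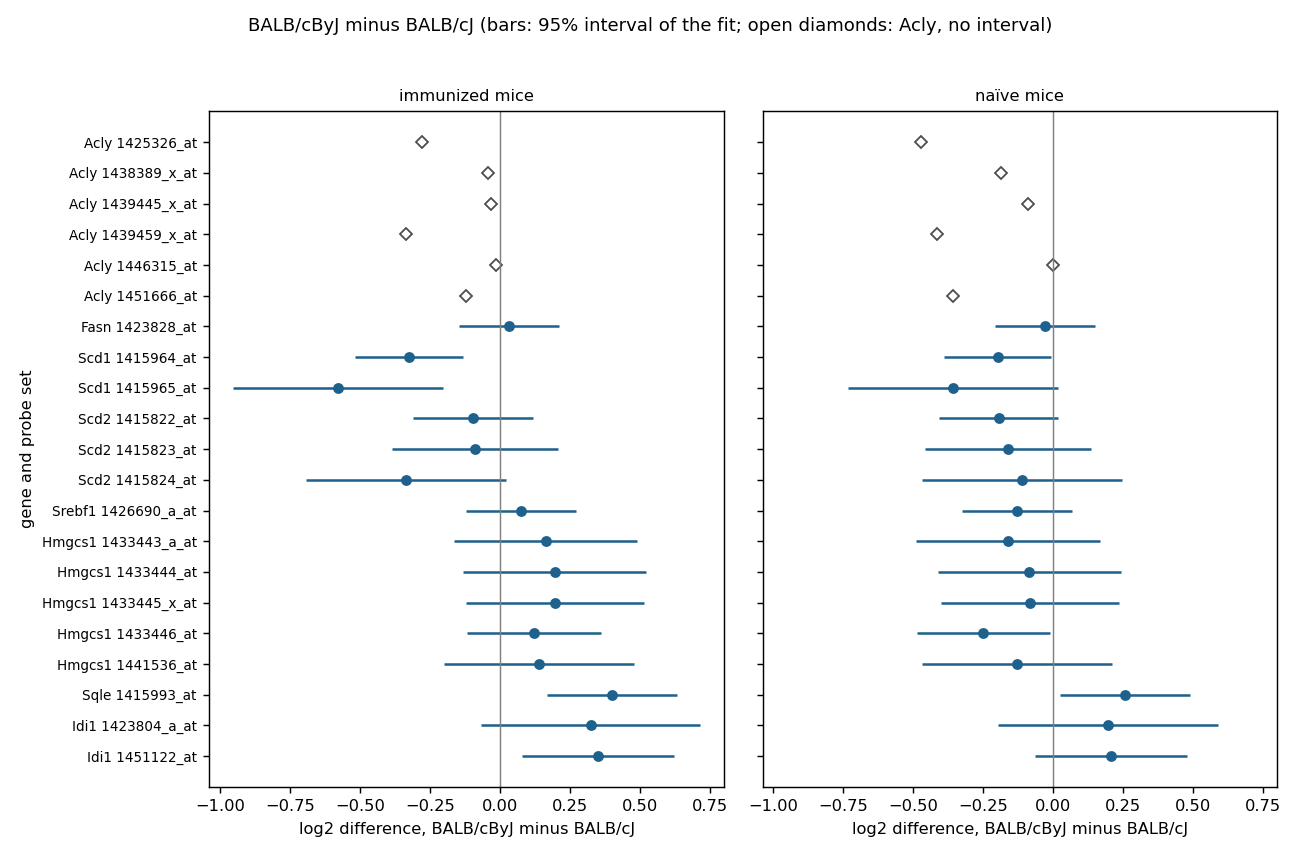
The x axis is the log2 difference BALB/cByJ minus BALB/cJ, in immunized mice on the left and naïve mice on the right, and each row is a probe set. Points are estimates and bars the 95% intervals of the limma fit over 12 arrays, with open diamonds for Acly, which has no interval. Both Scd1 probe sets lie below 0 and the Sqle and Idi1 probe sets above 0 in both panels, while the 5 Hmgcs1 probe sets lie above 0 in immunized and below 0 in naïve mice. Within the immunized arrays of sample numbers 48 to 50 alone, the Hmgcs1 differences were -0.18 to 0.03.

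The colony differences of Scd1 and Sqle had the same sign in both states, and their mean over immunized and naïve mice was added as a contrast after these values had been seen. Scd1 and Sqle thus prompted the contrast, and its values for the members are a description and no test of them. Over both states Sqle differed by 0.33 on the log2 scale (SE 0.0754), and Scd1 by -0.26 (1415964_at, SE 0.0624) and -0.47 (1415965_at, SE 0.122). Idi1 1451122_at differed by 0.28 (SE 0.0884) and the probe sets of Scd2 by -0.13 to -0.22. The adjusted p of limma was under 0.05 for 3 of the 15 probe sets, those of Sqle and Scd1, where 4.62% of all probe sets were called. At the level of genes, with the probe sets of a gene averaged, it was so for 2 of the 7 genes, Scd1 and Sqle, where 7.67% of all genes were called. Even so, these did not hold in several alternatives. With the run of sample numbers as a block only Sqle remained, with the replicate number as a block Sqle and Scd1 1415964_at remained, and with the adipose, erythroid or cell cycle mean as a covariate none did. The erythroid and cell cycle means themselves separated the naïve colonies without overlap. With these covariates a lost difference and a loss of precision cannot be told apart by the call. None of the 3 probe sets remained without naïve BALB/cByJ replicate 3, naïve BALB/cJ replicate 2, immunized BALB/cByJ replicate 2, immunized BALB/cJ replicate 1 or immunized BALB/cJ replicate 3. Of the 3, only Sqle remained without immunized BALB/cByJ replicate 3 or without naïve BALB/cJ replicate 1 (where Idi1 1451122_at passed as well), and Sqle was lost without immunized BALB/cByJ replicate 1. Scd1 1415965_at was lost without naïve BALB/cByJ replicate 1 or immunized BALB/cJ replicate 2.

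Immunization was compared with no treatment in each colony. In BALB/cByJ 14 of the 15 probe sets were higher in immunized mice, with a median difference of 0.192, where 50% of all probe sets were higher. Hmgcs1 1433446_at (0.39), Scd2 1415823_at (0.38), Sqle (0.33, SE 0.107, adjusted p = 0.462 by limma) and Idi1 1451122_at (0.29) had the highest differences, and Scd1 1415964_at (-0.04) was the 1 probe set below 0. Of the 15 probe sets 0 were called, where 0.0511% of all probe sets were called. An unadjusted p under 0.05 was reached by 6 of the 15, beside 8.3% of all. The analysis of variance, which passed 74 of all probe sets, called 0. The states did not overlap for 5 of the 15 (12.1% of all probe sets), Fasn, Hmgcs1 1433446_at, Sqle and 2 of Scd2, all higher in immunized mice. The 15 probe sets belong to 7 genes and share arrays, so they are not independent. The immunized arrays carry other sample numbers (29 to 33 and 48 to 50) than the naïve arrays (10 to 15), and immunization and any run of the arrays cannot be told apart.

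In BALB/cJ 10 of the 15 probe sets were higher in immunized mice, with a median of 0.118, where 49.8% of all probe sets were higher. Scd2 1415824_at (0.41, SE 0.165, adjusted p = 0.49 by limma), Scd1 1415965_at (0.39, SE 0.173, adjusted p = 0.53) and Scd2 1415823_at (0.31) had the highest differences, and 4 of the 5 Hmgcs1 probe sets and Srebf1 were below 0. Of the 15 probe sets 0 were called, where 0% of all probe sets were called. An unadjusted p under 0.05 was reached by 3 of the 15, beside 9.19% of all. The analysis of variance, which passed 74 of all probe sets, called 0. The states did not overlap for 4 of the 15 (17.0% of all probe sets), Fasn, Scd2 1415824_at and both of Scd1. These comparisons share no array with those in BALB/cByJ, but each shares its arrays with the colony comparisons above.

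Over both colonies, a contrast that was also added after the values had been seen, 0 of the 15 probe sets were called, where 0.0466% of all probe sets were called. Here 8 of the 15 had an unadjusted p under 0.05, beside 9.91% of all. The 8 include all 3 probe sets of Scd2, and probe sets of a gene are not independent. With the probe sets of a gene averaged, only Fasn, Scd2 and Sqle were under 0.05. As with the colonies over both states, the values for the members are a description and no test of them. The differences were 0.34 for Scd2 1415823_at (SE 0.0965, adjusted p = 0.311 by limma), 0.26 for Sqle (SE 0.0754, adjusted p = 0.322) and 0.16 for Fasn (SE 0.0581, adjusted p = 0.406).

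**Figure D3:**
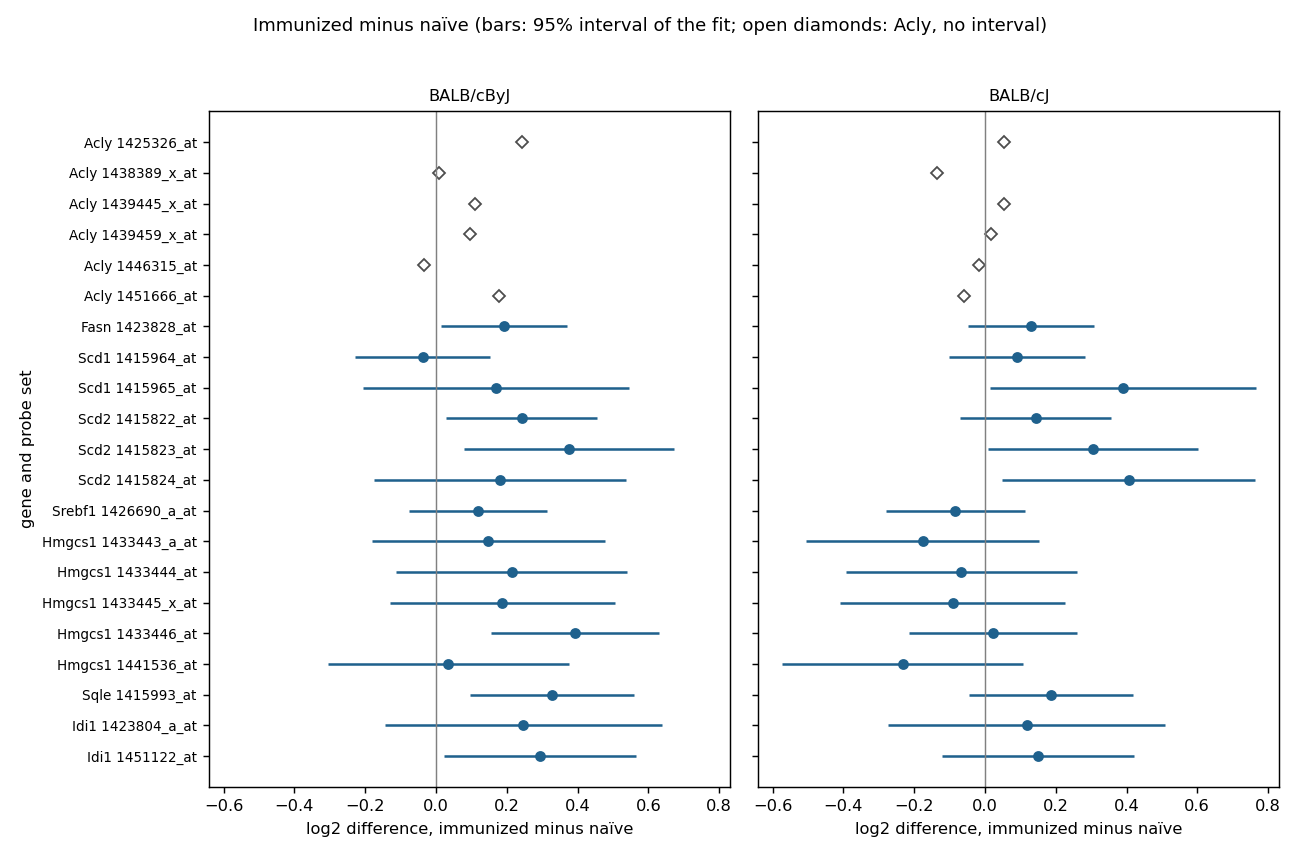
The x axis is the log2 difference immunized minus naïve, in BALB/cByJ on the left and BALB/cJ on the right, and each row is a probe set. Points are estimates and bars the 95% intervals of the limma fit, with open diamonds for Acly, which has no interval. In BALB/cByJ 14 of the 15 tested probe sets lie above 0, and in BALB/cJ 10 of the 15.

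Whether the colonies responded differently was tested directly as the difference of their responses (BALB/cByJ minus BALB/cJ). Hmgcs1 1433446_at had the only unadjusted p under 0.05 among the 15 probe sets (0.37, SE 0.155, adjusted p = 0.621 by limma). Of the 15 probe sets 0 were called, where 0% of all probe sets were called and 7.59% had an unadjusted p under 0.05. For Sqle the difference was 0.14 with a 95% interval of -0.185 to 0.469, and for Scd1 1415965_at it was -0.22 with an interval of -0.752 to 0.31. These intervals are wide enough to hold a response in one colony that the other lacks.

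Other genes of the same pathways were taken as 3 lists and tested at the level of genes, with adjusted p-values over all 18193 genes. Of 19 other sterol synthesis genes 16 were measured, of 18 other genes of fatty acid synthesis and desaturation 17, and of 15 regulators and targets of SREBP and of the liver X receptor (LXR) 13. In naïve mice 5 of these 46 genes were called, 3 higher and 2 lower in BALB/cByJ, where 7.54% of all genes were called. The higher ones were Lpcat3 (0.64, adjusted p = 0.0135 by limma), which makes polyunsaturated phospholipids, Lbr (0.45, adjusted p = 0.0227), a sterol reductase of the nuclear envelope, and Fdft1 (0.25, adjusted p = 0.0364), squalene synthase. The lower ones were Abca1 (-0.75, adjusted p = 0.048), a cholesterol exporter, and Ebp (-0.21, adjusted p = 0.0444), a sterol isomerase whose probe set missed the threshold when adjusted over all probe sets (adjusted p = 0.102). Lpcat3 read 0.16, 0.21 and 0.33 in naïve BALB/cByJ and -0.44, -0.55 and -0.21 in naïve BALB/cJ. Abca1 read -0.84, -0.13 and -0.62 in naïve BALB/cByJ and 0.39, 0.32 and -0.04 in naïve BALB/cJ. Neither gene overlapped between the naïve colonies, where 21.7% of all probe sets did not, and both were named because they were called there. With the cell cycle mean as a covariate the naïve difference of Lpcat3 was -0.03, and no list gene kept its call with the erythroid mean or without the 4 arrays with pigment cell genes. The cell cycle and erythroid means themselves separated the naïve colonies without overlap, so colony and covariate can hardly be told apart in these fits. The medians of the lists were -0.0313, 0.0107 and -0.146, beside -0.0114 for all genes.

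No gene of the 46 was called in the other planned comparisons. In immunized mice 0 were called between the colonies, where 0.143% of all genes were called, and 8 of the 46 had an unadjusted p under 0.05, beside 9.14% of all. The smallest p in each list there belonged to Pmvk, a kinase of the mevalonate pathway (0.25, adjusted p = 0.315 by limma), Elovl6, which lengthens fatty acids (0.22, adjusted p = 0.433), and Srebf2, which encodes SREBP-2 (0.24, adjusted p = 0.397). Pmvk read 0.16, 0.15 and 0.12 in immunized BALB/cByJ and -0.08, -0.13 and -0.12 in immunized BALB/cJ, and Srebf2 read 0.15, 0.16 and 0.16 in immunized BALB/cByJ and -0.16, 0.00 and -0.09 in immunized BALB/cJ. Both had all BALB/cByJ arrays above all BALB/cJ arrays, where 6763 of all 45037 probe sets did not overlap in either direction. They were named for the smallest p of their lists in this same comparison, so the lack of overlap is no further support.

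With immunization in BALB/cByJ 0 of the 46 were called, where 0.0824% of all genes were called, and 7 had an unadjusted p under 0.05, beside 8.26% of all. Fdps, which makes farnesyl diphosphate, had the smallest p of the sterol genes (0.26, adjusted p = 0.239 by limma), with 0.18, 0.08 and 0.12 in immunized BALB/cByJ against -0.24, -0.10 and -0.06 in naïve BALB/cByJ. The smallest of the other lists were Slc25a1, the citrate carrier (0.14, adjusted p = 0.618), and Nr1h3, which encodes LXR alpha (-0.32, adjusted p = 0.54). In BALB/cJ 0 of the 46 were called, where 0% of all genes were called, and 3 had an unadjusted p under 0.05, beside 9.98% of all, with the smallest p of each list at Lbr (0.30), Elovl6 (-0.20) and Lpcat3 (0.27). In the difference of responses 0 of the 46 were called, where 0% of all genes were called, and 4 had an unadjusted p under 0.05, beside 8.67% of all, with the smallest at Lbr (-0.36), Elovl6 (0.24) and Lpcat3 (-0.42).

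In the contrasts added later, 5 of the 46 genes were called between the colonies over both states, where 7.67% of all genes were called, and 14 had an unadjusted p under 0.05, beside 22.7% of all. Lpcat3 (0.43, adjusted p = 0.0158 by limma), Lbr (0.27, adjusted p = 0.0453), Fdft1 (0.20, adjusted p = 0.0224) and Mid1ip1 (0.18, adjusted p = 0.0469), which activates acetyl-CoA carboxylase, were higher in BALB/cByJ, and Abca1 (-0.67, adjusted p = 0.0195) was lower. The single probe sets of Lbr and Mid1ip1 missed the threshold when adjusted over all probe sets (adjusted p = 0.068 and 0.0871). Over both colonies immunization called 0 of the 46, where 0.176% of all genes were called, and 6 had an unadjusted p under 0.05, beside 9.74% of all. Fdps again had the smallest p of the sterol genes (0.22, adjusted p = 0.13), and Fads2 (0.14), a desaturase, and Stard4 (0.15), a sterol carrier, those of the other lists.

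Across the 12 arrays some members varied together, given here as a description for 28 pairs with no p. The arrays share their groups and the members were chosen with the values known. Srebf1 and Hmgcs1 had Pearson's r = 0.89 (Spearman's rho 0.86), and r = 0.87 after each group's mean had been removed and 0.87 without the 2 arrays farthest from the Srebf1 median. Sqle and Idi1 had r = 0.87 (rho 0.76), with 0.70 after the group means had been removed and 0.74 without the 2 farthest arrays. Acly and Scd1 had r = 0.81 (rho 0.75), with 0.64 and 0.84, and Scd1 and Scd2 had r = 0.74 (rho 0.80), with 0.66 and 0.86. In contrast, Scd1 had r = -0.37 with Sqle (0.05 after removal of the group means) and -0.42 with Idi1 (-0.25). Fasn had its highest r with Srebf1, at 0.51 (rho 0.46, and 0.68 after removal of the group means), and r = 0.23 with Acly (0.23 after removal). After removal other pairs were as close as those above, with 0.80 for Srebf1 and Idi1, 0.72 for Acly and Hmgcs1, and 0.70 for Hmgcs1 and Idi1. Their r before removal was 0.50, 0.39 and 0.57.

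**Figure D4:**
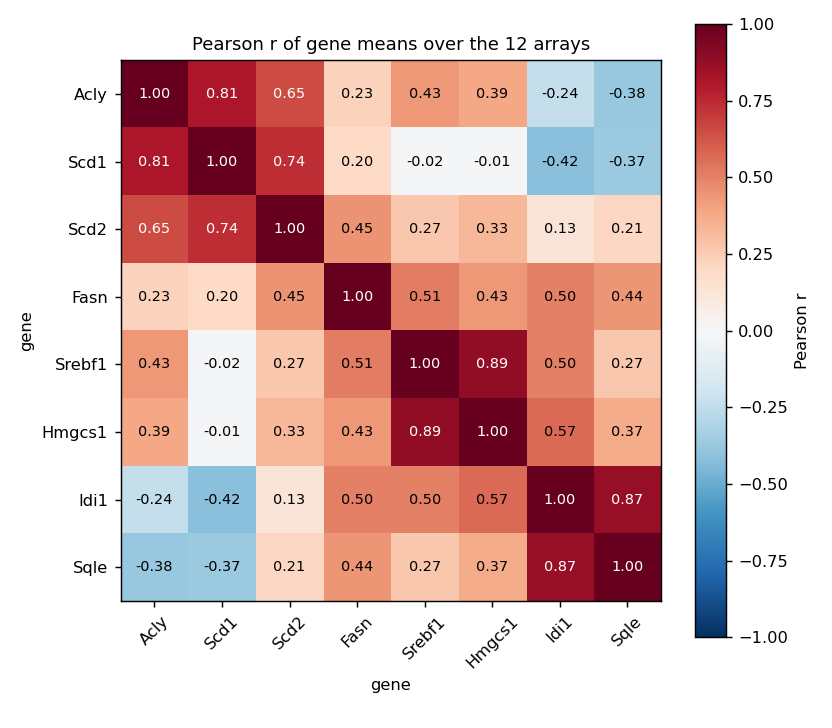
Both axes list the 8 genes, and each cell gives and colours Pearson's r of the gene means over the 12 arrays, on a scale of -1 to 1. Acly, Scd1 and Scd2 had r of 0.65 to 0.81 with one another, Srebf1 and Hmgcs1 0.89, and Idi1 and Sqle 0.87. These sets did not stand apart after the group means had been removed (not plotted). Srebf1 and Idi1 then had 0.80, and Acly and Hmgcs1 0.72.

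Among all 18193 genes, the genes most like Hmgcs1 were Zfp593 (r = 0.90), the member Srebf1 (0.89, rank 2) and Cibar1 (0.88). Insig1, a sensor of the sterol pathway that was singled out after its value was seen, ranked 5 with r = 0.87. It read 0.31, 0.23 and -0.47 in immunized BALB/cByJ and 0.17, -0.11 and 0.00 in immunized BALB/cJ, and 0.04, -0.23 and -0.28 in naïve BALB/cByJ and 0.26, 0.00 and -0.29 in naïve BALB/cJ. As with Hmgcs1, replicate 3 was the lowest in immunized BALB/cByJ and in both naïve groups. Acly was most like Bace1 (0.98), Adgrg2 (0.97) and Casd1 (0.97), and Scd1 most like Ralgapa1 (0.96), Ccdc91 (0.95) and Gmfb (0.95). No member was among the first 3 for either, and Scd1 ranked 803 of all genes by its likeness to Acly.

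The members, Acly, Scd1 and Sqle first, were compared with genes of dividing cells and of red cell precursors. Cell cycle genes (25 of 26 listed were measured) had array means of 0.02 to 0.40 in immunized BALB/cByJ, -0.60 to 0.02 in immunized BALB/cJ, 0.21 to 0.46 in naïve BALB/cByJ and -0.88 to -0.35 in naïve BALB/cJ. Erythroid genes (18 of 20) had means of -0.11 to 0.46, -0.96 to 0.22, 0.15 to 0.65 and -1.43 to -0.28 in these groups. The arrays highest in these lists were both naïve BALB/cByJ replicate 3, with Birc5 (0.70) and Icam4 (1.14) as the highest genes. Over the 12 arrays the cell cycle mean had r = -0.88 with Acly (rho -0.90, and -0.83 without the 2 arrays farthest from its median), -0.57 with Scd1 (rho -0.66, and -0.60) and 0.52 with Sqle (rho 0.56, and 0.47). The other members had r = -0.50 (Srebf1), -0.42 (Hmgcs1), -0.41 (Scd2), 0.34 (Idi1) and 0.09 (Fasn) with the cell cycle mean. With the erythroid mean Srebf1 had -0.56, Hmgcs1 -0.51 and Scd2 -0.45, against -0.51 for Scd1 and 0.42 for Sqle, while Idi1 had 0.23 and Fasn 0.05. The relation was thus not particular to Scd1 and Sqle. Acly was selected on its differences among these groups, so a high r with any list that separates them is no further support. Other lists were about as close to Acly by rank, with rho -0.86 for erythroid genes and -0.91 for exocrine pancreas genes (r = -0.42). T cell (r = 0.21) and adipose (r = 0.29) genes were less close to it. With the cell cycle mean as a covariate the colony difference over both states was 0.49 for Sqle and -0.16 and -0.28 for Scd1, and with the erythroid mean 0.42 for Sqle and -0.19 and -0.36 for Scd1. Each kept its sign, and none had an adjusted p under 0.05 with either covariate. Both means separated the naïve colonies without overlap, so colony and covariate can hardly be told apart there and the fit loses precision. The difference of Sqle was larger with either covariate than without, though its call was lost.

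**Figure D5:**
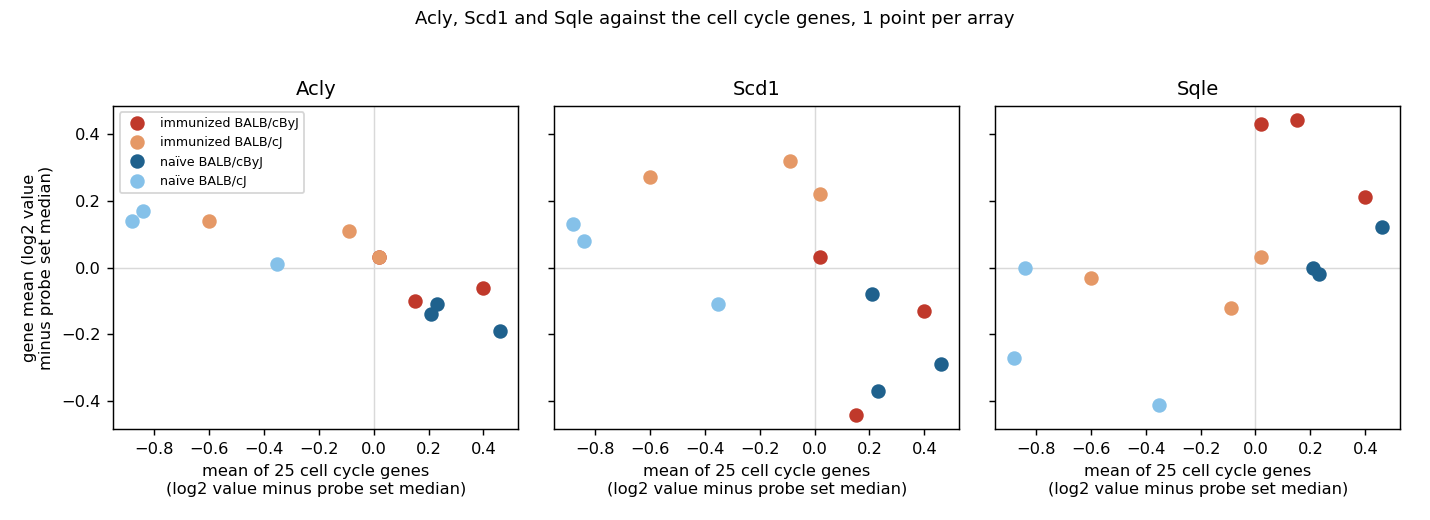
Each point is 1 of the 12 arrays, with the mean of 25 cell cycle genes on the x axis and the gene mean of Acly, Scd1 or Sqle on the y axis, both as log2 values minus the probe set's median. Colours mark the 4 groups. Acly falls with the cell cycle mean (r = -0.88). Sqle reads 0.21 to 0.44 in the 3 immunized BALB/cByJ arrays and -0.02 to 0.12 in the naïve BALB/cByJ arrays, and both groups have cell cycle means above 0. That Sqle difference was not called (adjusted p = 0.462 by limma), and immunization and any run of the arrays cannot be told apart. What part dividing cells had in it was not tested. Srebf1 and Hmgcs1, not plotted, had r of -0.50 and -0.42 with the cell cycle mean. Acly was selected on its differences among these groups, and the cell cycle mean also differs between them, so its r is a description only.

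Fat is a tissue with much Acly, Fasn and Scd1, so genes of fat were set beside the members. Adipose genes (10 of 12 listed were measured) had array means of -0.40 to 0.12 in immunized BALB/cByJ, -0.24 to 0.69 in immunized BALB/cJ, -0.25 to 0.33 in naïve BALB/cByJ and -0.03 to 0.43 in naïve BALB/cJ. Over the 12 arrays their mean had r = 0.20 with Scd1 (0.24 as rho, and -0.12 without the 2 arrays farthest from its median) and 0.35 with Fasn (0.25 as rho, and 0.08). On the array with the highest fat genes, immunized BALB/cJ replicate 1, Scd1 read 0.32 by the gene mean, against 0.22 and 0.27 on the other immunized BALB/cJ arrays. With the adipose mean as a covariate the colony difference over both states was -0.26 and -0.48 for Scd1, close to the values without it. Plasma cell genes (6 of 6) had r = 0.71 with Scd1 and 0.79 with Acly over the arrays, and their means were -0.18 to 0.13 in immunized BALB/cByJ, 0.03 to 0.16 in immunized BALB/cJ, -0.27 to -0.17 in naïve BALB/cByJ and -0.09 to 0.17 in naïve BALB/cJ. They were not alone in this, since B cell genes had r = 0.62 with Scd1 and 0.76 with Acly. For macrophage genes these were 0.34 and 0.63, and for T cell genes 0.07 and 0.21. What part these cells had in the members' values was not tested.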

How the data were processed

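The authors deposited log2 expression values of 12 arrays (base read as 2, which the sources used here do not state), made with the RMA algorithm (background correction, quantile normalization, summary by median polish), and then subtracted each probe set's median over the arrays. Depth has no meaning for arrays, and 3 per group limit the precision. After 64 control probe sets had been left out, group means were fitted over all 12 arrays with limma 3.58.1 in R 4.3.3 (lmFit, eBayes without trend). P values were adjusted by Benjamini-Hochberg over all 45037 probe sets, or 18193 genes, and called under 0.05. The arrays are labelled as biological replicates. The labels give 100 µg of PG, while the methods describe a lower dose for the colony experiments. Members and gene lists were chosen with earlier results of these data known. Named genes were the members, for each pathway list and contrast up to 4 called genes of largest difference or else the 1 with smallest p, the highest arrays of the cell marker lists, and the 3 genes most like Acly, Scd1 and Hmgcs1. Listed genes that matched no symbol were not analysed here. The fit was tested on simulated data. Alternatives covered normalization, variance model, probe sets, covariates, blocks, the methods' analysis of variance and omitted arrays.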

Additional observations from a re-analysis of the deposited data

How the results depend on the processing

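Under 27 alternatives, 38 differences of members (those with an unadjusted p under 0.05, and all of Scd1 and Sqle) gave 938 values on the same side of the threshold with the same sign, 43 that lost the call, 2 that gained one and 7 that changed sign. The other 67 differences changed sign in 148 of 1713 values and were called in 1. No member was called in the immunized colonies, in either immunization comparison or in the difference of responses under any alternative, and array weights called 1 between the naïve colonies (Scd2 1415822_at). Between the colonies over both states, where 3 were called, 1 was called with the run of sample numbers as a block, and 0 with the adipose, erythroid or cell cycle mean as a covariate. It was also 0 after the 4 arrays high in pigment cell genes were dropped (1 naïve BALB/cJ array was left and is assumed to vary like the other groups), and after the 2 arrays high in fat or pancreas genes were dropped. Naïve BALB/cJ replicate 3 was kept in both of these fits, though its mean was 0.43 for fat genes and 0.58 for pigment cell genes. Leaving out each array in turn gave 0 to 3. The erythroid and cell cycle means separated the naïve colonies without overlap, so a call lost with them cannot be told apart from a loss of precision. The cause was not tested.

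The differences that changed sign were 0.0695 for Hmgcs1 1433446_at between the naïve colonies (cell cycle covariate), 0.0578 for Scd1 1415964_at with immunization in BALB/cByJ (without the pigment arrays, and without immunized BALB/cByJ replicate 2; arrays left out in turn gave -0.0996 to 0.0578), -0.0256 for Scd1 1415965_at there (array weights), -0.125 for Sqle in the difference of responses (without the pigment arrays), and -0.00236 and -0.00443 for Scd1 1415964_at over both colonies (run block, and without immunized BALB/cByJ replicate 1; arrays left out in turn gave -0.00443 to 0.0743). Of the called pathway genes, 3 changed sign with the cell cycle covariate, at -0.0347 for Lpcat3 in naïve mice and -0.0477, -0.021 and -0.00847 for Lpcat3, Lbr and Mid1ip1 over both states. That covariate separated the naïve colonies without overlap, so it and colony can hardly be told apart. Over 23 alternatives at the level of genes, run after the values had been seen, the naïve difference kept its call in 17 for Lpcat3, 15 for Lbr, 13 for Fdft1, 7 for Abca1 and 3 for Ebp, and the difference over both states in 20 for Lpcat3, 16 for Abca1, 15 for Fdft1, 7 for Lbr and 6 for Mid1ip1.

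Same-numbered replicates were correlated between -0.289 and 0.368 in their deviations from the group means. In no comparison of the study were all 3 above 0.1, so the numbers were not taken to pair the arrays, though the naïve colonies came close (0.296, 0.0976 and 0.35) and immunized BALB/cByJ against naïve BALB/cJ, which no comparison uses, gave 0.301, 0.109 and 0.253. With the number as a replicate block 0 members were called in the 5 planned comparisons and 2 of the 3 between the colonies over both states (Scd1 1415964_at and Sqle). No filter on dim probe sets could be run, since the values hold no level, and probe sets at or above the median SD were used in its place. The number of arrays, 3 a group, limits the precision.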
